A study of Mus musculus with 8 samples.

Results

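Acinar cells of the exocrine pancreas make digestive enzymes, and 10 of their genes were followed here in liver and uterus of mice. The genes are Amy2a5, Pnlip, Clps, Cel, Prss2, Ctrb1, Cela2a, Cela3b, Cpa1 and Cpb1, 10 of the 23282 gene rows of each library. They encode pancreatic enzymes and were selected on their CPM in the liver libraries, being high in 1 of them, that of the animals given bisphenol A alone. Their level in that library is therefore a description and not a finding, and no test is attached to it. The mice were female CD-1, an outbred stock, ovariectomized at 6 weeks of age and left for a week before treatment. All groups share the ovariectomy. The groups were an ovariectomized control, bisphenol A (BPA, a building block of polycarbonate plastic with weak estrogenic activity) in a daily dose of 200 mg/kg, the root extract Korean red ginseng (KRG) in a daily dose of 1.2 g/kg, and BPA with KRG at the same doses, called the combined group below, each given by mouth for 7 days. Each group has 1 liver library and 1 uterus library, 8 in all, so no value has replicate error. The number of animals behind each library is not in the labels, and neither is whether liver and uterus of a group were taken from the same ones.

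The acinar cell stores its enzymes in zymogen granules and releases them through the pancreatic duct into the duodenum, most of the proteases as inactive precursors that trypsin activates. Its secretory genes are switched on together by the PTF1 complex, in which the factors PTF1A and RBPJL bind an E-box and a nearby TC-box. Liver is not known as a main source of these enzymes. The mouse pancreas is a diffuse gland with its islets, which make hormones, scattered among the acini. In bulk RNA, fewer cells of a type and less RNA per cell cannot be told apart.

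The libraries are 3' end RNA sequencing (QuantSeq), which reads a stretch near the end of each transcript, so that counts can be compared between genes without dividing by length. Totals ran from 12372073 to 15290950 counts, and 1 count is worth 0.0654 to 0.0808 CPM (the count as a share of the library's column total, on the usual scale). The livers carried their own markers, with 15 hepatocyte genes at 6.56% to 7.59% of all counts, and had 0 counts of the uterine factors Hoxa10 and Hoxa11. Intervals given below are exact 95% intervals that cover counting error only, and since the labels name no molecular identifiers, the reads may not stand for independent molecules.

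The 10 acinar genes together held 13449 counts in the BPA liver, or 1037 CPM (95% Poisson interval 1019 to 1054). The control liver held 25 counts (1.63 CPM, 1.06 to 2.41), the KRG liver 123 (8.43 CPM, 7.01 to 10.1) and the combined liver 73 (5.90 CPM, 4.62 to 7.42). The BPA liver was thus 634-fold (429 to 980) above control, 123-fold above KRG and 176-fold above the combined liver. The combined group also received BPA at the same dose, and its liver stood with the 2 livers that did not. With 1 library per group, a response to BPA alone and a property of that single sample cannot be told apart in this value.

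Amy2a5, pancreatic alpha-amylase, which cuts starch, was the most abundant of the 10. It stood at 0 counts in the control liver, 5572 in the BPA liver (430 CPM), 24 in the KRG liver (1.64 CPM) and 16 in the combined liver (1.29 CPM). Against the 3 counts that a count of 0 allows in the control library, it was at least 2189-fold higher in the BPA liver. Only this liver stood out, and the other 3 lay within 2 CPM of each other.

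Of the genes of fat digestion, Pnlip encodes the triglyceride lipase, Clps colipase, the cofactor that anchors lipase at the fat droplet, and Cel the carboxyl ester lipase that bile salts activate. Pnlip had 1, 2029, 8 and 7 counts in the control, BPA, KRG and combined livers, and 156 CPM in the BPA liver. Its ratio to control, 2392, rests on 1 control count and has an interval of 429 to 94515. Clps was at 0 counts in control and combined, 344 (26.5 CPM) in BPA and 8 in KRG. Cel was the least abundant of the 10, with 0, 193, 1 and 0 counts in that order and 14.9 CPM in the BPA liver. Against 3 counts in control these levels are at least 135-fold higher for Clps and at least 75.8-fold for Cel.

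The serine proteases are trypsinogen (Prss2), the precursor of the protease that activates the others, chymotrypsinogen (Ctrb1) and the elastases Cela2a and Cela3b. Prss2 had 0, 1449, 18 and 7 counts in the control, BPA, KRG and combined livers, 112 CPM in the BPA liver and at least 569-fold more than control. Cela3b had 0, 1266, 12 and 9 counts, 97.6 CPM in the BPA liver and at least 497-fold more than control. These profiles resemble that of Amy2a5, with nothing in control and about 1 CPM or less in the KRG and combined livers, Prss2 in KRG (1.23 CPM) being the highest. Ctrb1 had 5, 507, 10 and 2 counts (39.1 CPM in BPA), 120-fold (50.9 to 370) above control. Cela2a differed from the rest, with 18, 1187, 17 and 21 counts. Its 1.18, 1.17 and 1.70 CPM in the control, KRG and combined livers were nearly level, and the BPA liver at 91.5 CPM was 77.7-fold (49.0 to 132) above control.

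The carboxypeptidases remove residues from the C-terminal end of peptides, basic ones in the case of Cpb1 and mainly aromatic and aliphatic ones in the case of Cpa1. Cpb1 had 1, 588, 20 and 11 counts in the control, BPA, KRG and combined livers (45.3 CPM in BPA). Cpa1 had 0, 314, 5 and 0 counts (24.2 CPM in BPA), at least 123-fold more than control. On the log2(CPM + 1) scale, where low genes show less than their full change, the difference between the BPA and control livers ran from 3.99 (Cel) to 8.75 (Amy2a5) over the 10, with a median of 5.43. All 10 were at least 2-fold higher by this measure, where 0.752% of all 23282 rows were. This share is background only, since the same comparison chose the genes. When a mean of 10 CPM or more over the livers was required, 7 passed, through the BPA liver alone, and Cpa1, Clps and Cel did not.

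**Figure D1:**
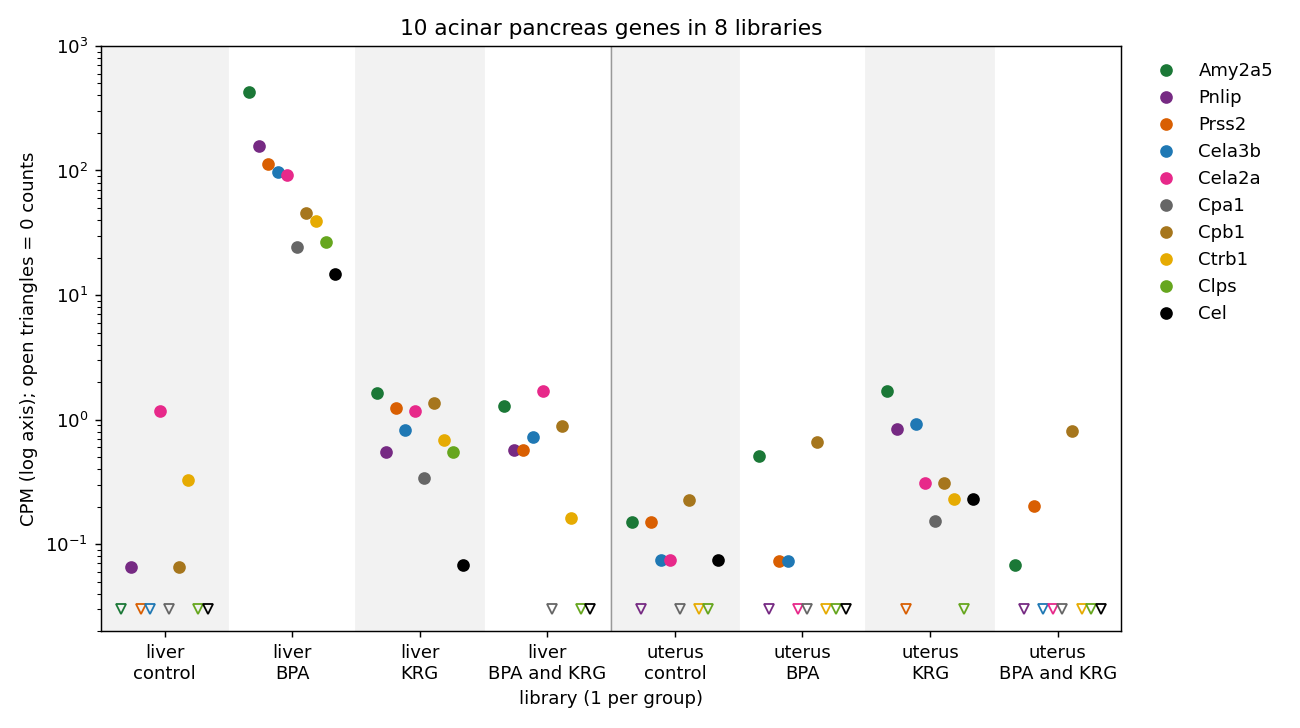
CPM of the 10 acinar genes (log axis) in the 4 liver and 4 uterus libraries, 1 point per gene and library, with genes at 0 counts drawn as open triangles at the bottom. In the BPA liver the points lie between 14.9 and 430 CPM, and in each of the other 7 libraries all lie below 2 CPM.

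The genes lie on 7 chromosomes in GENCODE M21 on GRCm38, the same build as mm10, which the submitters' processing notes name. Cpb1 (chr3:20248264-20275733) and Amy2a5 (chr3:113247178-113258837) lie on the minus strand of chromosome 3, Cela3b (chr4:137420999-137430540) and Cela2a (chr4:141814962-141826160) on the minus strand of chromosome 4, and Cpa1 (chr6:30639218-30645363) and Prss2 (chr6:41521787-41525079) on the plus strand of chromosome 6. Cel is at chr2:28555795-28563403, Ctrb1 at chr8:111686519-111691010 and Clps at chr17:28558149-28560766, all on the minus strand, and Pnlip at chr19:58652498-58681788 on the plus strand. All are protein coding. No chromosome region thus holds them as a block.

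Promoter sequence was read for what the genes share beyond their level. RefSeq windows on GRCm38.p6 matched 9 of the 10 genes, all but Clps. In the 250 bases before the start, 3 motifs were searched on both strands: the E-box letters CACCTG, the TC-box letters TTTCCCA and the TATA-box letters TATAAA. A match on the other strand shows as the reverse complement. CACCTG was in 5 of the 9 (Prss2, Cela3b, Cela2a, Cpb1 and Cel), against 17.2% of all 32851 promoter windows. TTTCCCA was in 5 of the 9 (Prss2, Cela2a, Cpa1, Ctrb1 and Cel), against 6.82%, and both were in Prss2, Cela2a and Cel, against 1.17%. TATAAA was in Amy2a5, Pnlip and Prss2, against 12.4%, and in Amy2a5 and Pnlip it began at position -30 from the start. A match describes the letters in the window and does not show binding. The 4 windows below hold a TTTCCCA match and lie wholly outside the annotated gene. They are written 5′ to 3′ on the gene's strand with matches in capitals, and no 2 matches overlap.
Prss2, chr6:41521526-41521775, plus strand: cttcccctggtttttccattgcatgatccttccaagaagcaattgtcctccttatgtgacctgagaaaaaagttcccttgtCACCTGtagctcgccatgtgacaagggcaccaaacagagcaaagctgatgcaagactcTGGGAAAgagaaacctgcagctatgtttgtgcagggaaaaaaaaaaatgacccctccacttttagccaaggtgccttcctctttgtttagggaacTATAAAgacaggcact
Cel, chr2:28563404-28563653, minus strand: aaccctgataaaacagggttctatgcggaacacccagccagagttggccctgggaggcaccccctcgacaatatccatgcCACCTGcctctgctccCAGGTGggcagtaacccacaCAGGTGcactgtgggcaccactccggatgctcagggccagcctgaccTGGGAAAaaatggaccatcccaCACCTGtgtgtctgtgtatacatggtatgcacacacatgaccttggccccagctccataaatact
Cpa1, chr6:30638968-30639217, plus strand: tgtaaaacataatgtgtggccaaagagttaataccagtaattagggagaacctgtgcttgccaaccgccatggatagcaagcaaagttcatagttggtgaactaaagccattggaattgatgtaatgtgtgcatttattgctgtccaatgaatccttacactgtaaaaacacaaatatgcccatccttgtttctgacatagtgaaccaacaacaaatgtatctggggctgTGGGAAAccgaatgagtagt
Ctrb1, chr8:111691011-111691260, minus strand: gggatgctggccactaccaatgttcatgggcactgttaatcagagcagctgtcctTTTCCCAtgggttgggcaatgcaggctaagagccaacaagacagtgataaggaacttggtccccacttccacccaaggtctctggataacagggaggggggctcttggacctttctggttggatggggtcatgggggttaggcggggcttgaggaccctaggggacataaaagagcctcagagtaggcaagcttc
In Prss2 the E-box letters begin at -169, the TC-box letters at -111 and TATAAA at -16. Cel has E-box letters 4 times, at -170, -154, -134 and -65, around a TC-box match at -87. Cpa1 has its only match at -20 and Ctrb1 its only match at -195, so the 4 windows share the TC-box letters but not their place.

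The make-up of the low counts in the other livers differed from the BPA liver in some of the 10 genes and not detectably in others. Amy2a5 made up 41.4% (95% Clopper-Pearson interval 40.6 to 42.3) of the acinar counts in the BPA liver but 19.5% (12.9 to 27.6) in the KRG liver and 21.9% (13.1 to 33.1) in the combined liver. Cpb1 made up 4.37% (4.03 to 4.73) in the BPA liver, 16.3% (10.2 to 24.0) in KRG and 15.1% (7.77 to 25.4) in the combined liver. For both genes the intervals of the KRG and combined livers lie apart from that of the BPA liver. Without Cela2a, whose counts are uncertain, this still held for Cpb1, but Amy2a5 in the combined liver was 30.8% (18.7 to 45.1) against 45.4% (44.6 to 46.3) in the BPA liver, and these intervals overlap. The intervals of Pnlip and Clps in KRG, and of Cela2a in the combined liver, also lay apart from BPA. In KRG, Pnlip was 6.50% (2.85 to 12.4) against 15.1% (14.5 to 15.7) in BPA. Clps was 6.50% (2.85 to 12.4) against 2.56% (2.30 to 2.84), only just apart. Cela2a was 28.8% (18.8 to 40.6) in the combined liver against 8.83% (8.35 to 9.32) in BPA. For Prss2 and Cela3b the intervals of the BPA, KRG and combined livers overlapped, with Cela3b at 9.41% in BPA, 9.76% in KRG and 12.3% in the combined liver. In the control liver Cela2a was 18 of the 25 counts, 72.0% (50.6 to 87.9). Taken gene by gene, the KRG liver held between 0.351% (Pnlip) and 3.02% (Cpb1) of the BPA liver's CPM. These percentages rest on 1 to 24 counts per gene in the KRG liver.

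**Figure D2:**
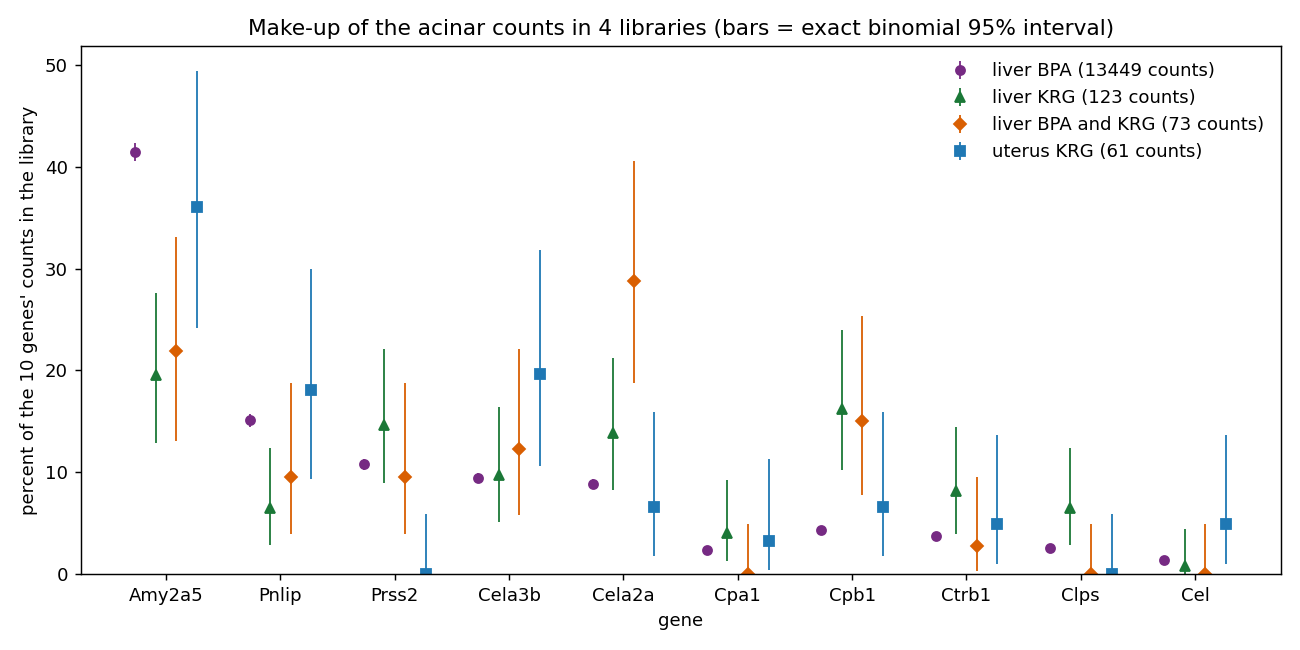
Share of each gene (horizontal axis) in the summed counts of the 10 acinar genes, in percent, for the BPA, KRG and combined livers and the KRG uterus, with exact binomial 95% intervals as bars. Amy2a5 is at 41.4% in the BPA liver and 19.5% in the KRG liver, and Cpb1 is at 4.37% and 16.3%.

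Without Cela2a, whose counts overlap another gene as described below, the sums were 0.458 CPM in the control liver (7 counts), 945 in BPA, 7.26 in KRG and 4.20 in the combined liver. The BPA liver was then 2065-fold (1002 to 5137) above control, against 634-fold (429 to 980) with Cela2a. The KRG liver was then 15.9-fold (7.44 to 40.4) and the combined liver 9.18-fold (4.15 to 24.0) above control, against 5.16-fold and 3.61-fold with Cela2a. Both livers given ginseng thus held more acinar counts than the control liver beyond counting error. Of the 10 genes, Amy2a5, Prss2 and Cpb1 were at least 2-fold higher in KRG than in control on the log2(CPM + 1) scale (0.825% of all rows were), and Amy2a5 alone was in the combined liver (0.812% of all rows). The 3 comparisons share the control library, in which 6 of the 10 genes were at 0.

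Further acinar products were high in the same library. A list of 28 measured secreted acinar proteins outside the 10 had 24 at least 2-fold higher in the BPA liver than in control and 0 lower, where 0.752% of all rows were higher and 1.98% lower. Its median log2 difference was 3.37, beside 0.00 over all 23282 rows. The list was made with earlier results of these data known, so these values are a description. Zg16, a zymogen granule protein, stood at 0.327, 244, 1.58 and 0.727 CPM in the control, BPA, KRG and combined livers. The lipase relative Pnliprp1 stood at 29.4 CPM in BPA and at most 0.274 elsewhere in liver. The trypsin inhibitor Spink1 stood at 11.1 CPM in BPA and at most 0.392 in the other livers. Of the 28, Gp2 and Reg3d were not highest in the BPA liver among the 8 libraries: Gp2, a zymogen granule membrane protein, reached 10.5 CPM there and 84.0 in the control uterus, and Reg3d had 0 counts throughout. Cela1, an elastase, stood apart from the list, at 238, 498, 145 and 177 CPM in the 4 livers in the same order, and it was present in every uterus (16.4 to 109 CPM).

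Close copies limit what single rows say. Amy2a3, Amy2a2, Amy2a4 and Amy2b, copies of Amy2a5, stood at 325, 112, 113 and 10.9 CPM in the BPA liver and at 0 counts in control. How the authors treated reads with several matches is not given in the sources used here, so the split between amylase rows is uncertain and a read may have been counted in several. Of the 50-base words in the last 300 bases of the Amy2a5 transcript, 4.38% also occur in transcripts of Amy2a2, Amy2a3 or Amy2a4, each taken alone, and 0% in Amy1. For Prss2 the share was 5.18% with Try5 and 12.7% with Try10, and for Cela3b it was 29.5% with Cela3a. Pnlip, Ctrb1, Cpa1, Cpb1 and Cela2a shared none with the relatives examined. Amy1, the salivary and liver amylase, stood at 202, 242, 222 and 300 CPM in the 4 livers.

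The rule for likeness ranked all 6429 rows of at least 10 CPM in the BPA liver by the log2(CPM + 1) difference between that liver and the highest of the other 3. The first 25 places went to the 10 acinar genes and 15 of the list of 28. Since the 10 genes were chosen on their level in this liver, their places were largely set in advance. The list of 28 was made with earlier results of these data known, so its places are a description as well. In all, 23 rows (0.358%) were at least 10-fold higher than in each other liver, namely the 10 genes and 13 of the list, and 0 rows remained without them. With a pseudocount of 5 CPM in place of 1, or from 50 CPM in the BPA liver, 9 rows remained. Of the 20 most similar genes, Amy2a3 (7.10), Zg16 (6.57), Amy2a2 (6.18), Amy2a4 (6.14) and Try4 (5.15) led, followed down to Spink1 (3.12) by Try5, 2210010C04Rik, Pnliprp1, Ctrl, Cela3a, Rnase1, Ctrc, Gp2 and Amy2b. The 5 that are no acinar product were Cyp4a12a (2.84), Mup1 (2.00), Rplp1 (1.99), Gsta1 (1.92) and Casp9 (1.89). The gap between these and the acinar genes is small at Spink1 and Cyp4a12a, a male-biased liver P450 at 2.09, 25.4, 2.67 and 0 CPM in the 4 livers.

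**Figure D3:**
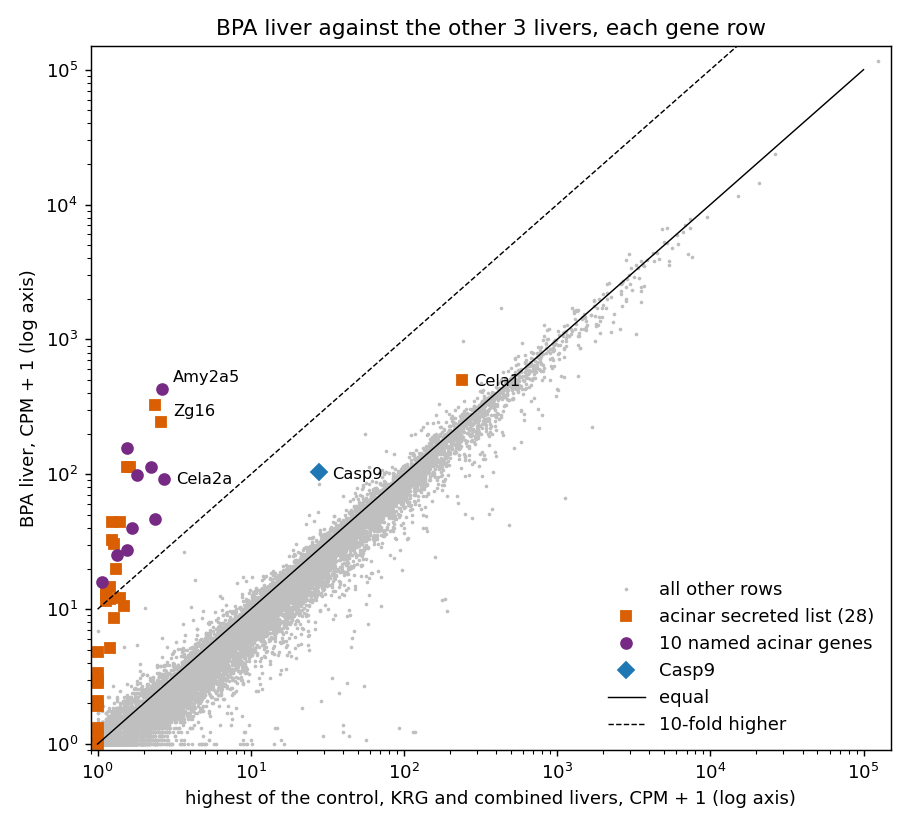
Each gene row by its CPM + 1 in the BPA liver (vertical, log axis) and in the highest of the control, KRG and combined livers (horizontal, log axis), with the 10 acinar genes as circles and the 28 listed secreted acinar genes as squares. The 10 circles lie on or above the dashed 10-fold line, from a difference of 3.89 (Cel) to 7.35 (Amy2a5) on the log2 scale, and Casp9 and Cela1 lie between the lines.

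Casp9, an initiator caspase, is in this list and lies beside an acinar gene. By gene bounds, its 3' end overlaps the 3' ends of Cela2a and Ctrc, which run on the opposite strand, over chr4:141814962-141815976, 1015 bases. Ctrc as annotated also spans all of Cela2a on the same strand, so strand does not separate Ctrc from Cela2a. Casp9 had 350, 1335, 233 and 334 counts in the control, BPA, KRG and combined livers (22.9, 103, 16.0 and 27.0 CPM), and 21.5 to 29.4 CPM in the 4 uteri. Cela2a was the one of the 10 genes with the most even low level in the other 3 livers. The use of strand in the counting is not given in the sources used here. Without strand, reads of Casp9 cannot be told from those of Cela2a and Ctrc in the overlap. The value of Casp9 in the BPA liver and those of Cela2a in the other livers are uncertain for this reason. In the control, BPA, KRG and combined uteri, at the Casp9 levels given above, Cela2a had 1, 0, 4 and 0 counts. Whether Casp9 reads entered the Cela2a row in liver was not tested. Cel also overlaps an antisense transcript, Gm13381, and the other 8 genes overlap no gene on the opposite strand.

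The acinar transcription factors examined were not at least 2-fold higher in the BPA liver than in control, while some other genes of their list were. Ptf1a and Rbpjl, the factors of the PTF1 complex, were at 0 counts in all 4 livers, and Bhlha15, which shapes the secretory apparatus, had 3 counts in the BPA liver. A count of 0 in the BPA library allows up to 0.231 CPM, so for Ptf1a and Rbpjl low expression cannot be told from none. Below 1 CPM there, neither they nor Bhlha15 could be 2-fold higher on the log2(CPM + 1) scale. Nr5a2, which liver also expresses, stood at 29.0, 41.4, 34.5 and 38.5 CPM in the control, BPA, KRG and combined livers. Of the list of 12 factors and secretory genes, 2 were at least 2-fold higher in BPA than in control and 1 lower (median log2 difference 0.23), beside 0.752% and 1.98% of all rows. The 2 were Pdia2, a disulfide isomerase of pancreas, with 0, 76, 0 and 0 counts, and Cckar, the cholecystokinin receptor, with 4, 22, 0 and 1 counts. Gatm, which makes the creatine precursor guanidinoacetate and is abundant in pancreas, was the lower gene, at 6.80, 2.39, 6.65 and 10.9 CPM. Genes of folding and folding stress in the endoplasmic reticulum were abundant in liver, summing to 6451 CPM in control and 5273 in BPA. A small addition could thus not double their sum. Of these 12 genes, 0 were at least 2-fold higher in BPA than in control and 2 lower. The lower ones were Xbp1 (log2 difference -1.27) and, just past the line, Manf (-1.01).

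Markers of the other pancreatic cells were near 0. Ins2, Gcg, Ppy, Pyy and Iapp had 0 counts in the BPA liver, Ins1 had 4 and Chga 5, and the 17 islet genes summed to 13 counts (1.00 CPM, 0.534 to 1.71), against 0.206 to 0.458 CPM in the other livers. Of the 17, 12 were at 0 counts in the BPA liver, and 0 were at least 2-fold higher or lower than in control. All 17 were below 1 CPM in both livers, so on the log2(CPM + 1) scale neither was possible. Duct genes, which bile ducts share, summed to 48.1 CPM in the BPA liver and 59.2 to 62.8 in the other livers. Krt19 stood at 1.46 CPM in BPA and 2.62 in control. Of the 11 duct genes 0 were at least 2-fold higher in BPA than in control and 1 was lower.

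Lists of organs near the pancreas gave no like pattern in their sums. The stomach list summed to 4.01 CPM in the BPA liver and 0.323 to 2.03 in the others, and 44 of its 52 counts in the BPA liver were Atp4a, with Gkn1, Gif, Atp4b and Muc5ac at 0 in all 4 livers. The intestine list summed to 33.2 CPM against 25.7 to 38.5, mostly Fabp2, with Sis, Lct and Cdx2 at 0. Spleen and lymphoid genes summed to 1.70 CPM against 2.33 to 4.20, and adipose genes to 35.8 against 48.1 to 63.1. In the salivary list Amy1 made up nearly all counts, and Bpifa2, Smr3a, Dcpp1 and Prol1 were at 0. Each of these 5 lists had 0 genes at least 2-fold higher in BPA than in control, where 0.752% of all rows were. The adipose list had 1 lower. On the log2(CPM + 1) scale a gene below 1 CPM in the BPA liver cannot be 2-fold higher. All measured spleen and lymphoid genes were below 1 CPM there, as were the stomach genes but Atp4a and the salivary genes but Amy1. For these genes the 0 was fixed in advance. Of these 5 lists, the stomach list alone had its highest liver sum in the BPA library.

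Markers of 2 further tissues differed between the livers. Skeletal muscle genes summed to 186 and 517 CPM in the control and KRG livers and to 4.55 and 2.67 CPM in the BPA and combined livers, with 8 of 10 at least 2-fold lower in BPA than in control, where 1.98% of all rows were. Erythroid genes summed to 5295, 10178, 7616 and 2497 CPM in the control, BPA, KRG and combined livers. Some beta-globin rows had near-equal counts in the BPA liver, Hbb-bs and Hbb-b1 (21305 and 21176) and Hbb-bt and Hbb-b2 (15449 and 15306). The same reads may thus be counted in more than 1 row of this sum. Of the 11 erythroid genes, Hba-a1 and Alas2 were at least 2-fold higher in BPA than in control, where 0.752% of all rows were. The hepatocyte and uterus lists had 0 in either direction. All uterus genes but Myh11 and Des were below 1 CPM in both livers and could not be 2-fold apart on the log2(CPM + 1) scale. Neither the muscle nor the erythroid list follows the acinar genes across the 4 livers: muscle was low in 2 of them, and erythroid genes were highest in the BPA liver but present in all 4. Their part in the acinar result was not tested.

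**Figure D4:**
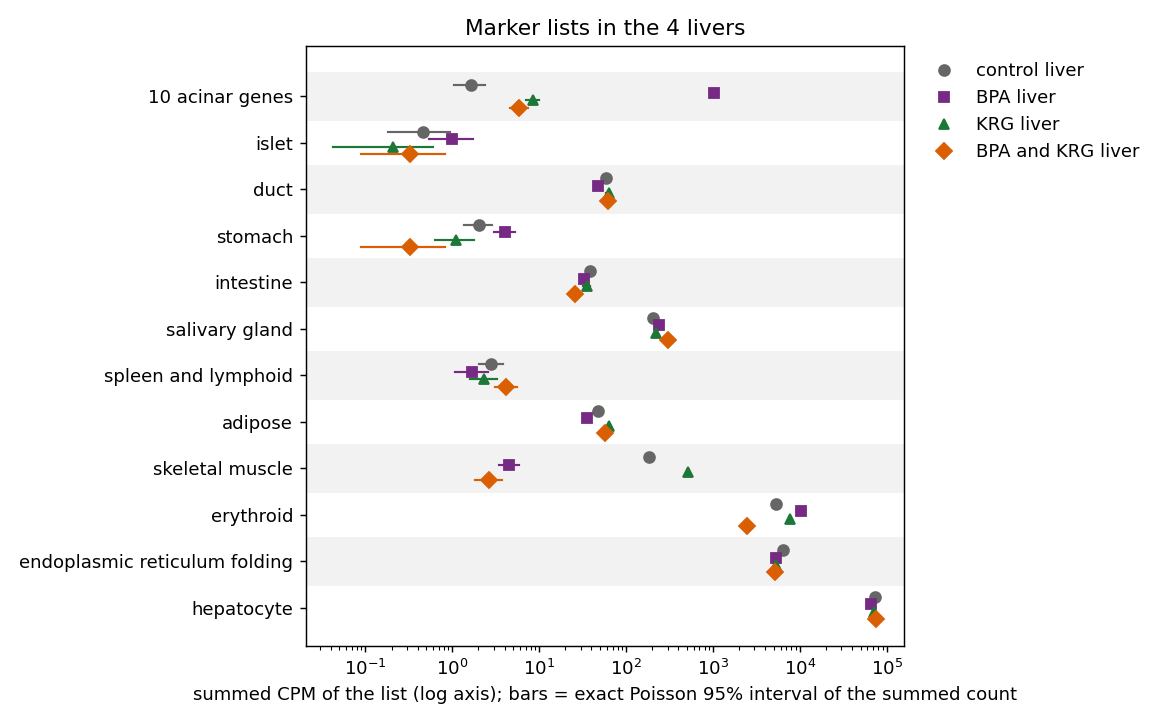
Summed CPM of each marker list (log axis) in the 4 livers, 1 symbol per library, with exact Poisson 95% intervals of the summed count. The 10 acinar genes lie at 1037 CPM in the BPA liver and below 10 in the others, the islet list stays at or below 1.00 CPM, and skeletal muscle separates the control and KRG livers from the 2 given BPA.

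The uterus libraries held few acinar counts. The 10 genes summed to 10, 18, 61 and 16 counts in the control, BPA, KRG and combined uteri, or 0.747, 1.31, 4.70 and 1.08 CPM. The KRG uterus was 6.28-fold (3.20 to 13.8) above the control uterus, led by Amy2a5 (22 counts), Cela3b (12) and Pnlip (11), with Prss2 and Clps at 0. Amy2a5 made up 36.1% (24.2 to 49.4) of its acinar counts, an interval that includes the share in the BPA liver. In the combined uterus Cpb1 was 12 of the 16 counts, and in the BPA uterus 9 of 18. The intervals of the BPA uterus, from the group whose liver was high, and the combined uterus overlapped (0.777 to 2.07 and 0.618 to 1.76 CPM).

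The acinar rows took little of the BPA liver library. The 10 genes made up 0.104% (0.102 to 0.105) of its counts, and together with the list of 28, Cela1 included, 0.260%. Leaving these rows out of the column total raised the summed CPM of the 10 from 1037 to 1039. The rows bear more on counts of genes. Among the 6709 rows with a mean of at least 10 CPM, 82 (1.22%) were at least 2-fold higher in the BPA liver than in control and 205 lower. Of the 82, 14 were on the acinar lists, 7 of the 10 genes and 7 of the list of 28, which leaves 68. Those of the list include Cela1, which was present in every library, and Amy2a2, Amy2a3 and Amy2a4, whose reads may be those of Amy2a5. With edgeR's trimmed mean of M values (TMM) in place of column totals, the counts were 108 higher and 139 lower, since the median log2 difference of all these rows moved from -0.08 to 0.03.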

How the data were processed

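RNA from 4 livers and 4 uteri of ovariectomized CD-1 mice was sequenced as 3' end libraries (QuantSeq), 1 per treatment and tissue, per the labels' protocols. The values deposited by the authors are raw counts, whole numbers for each of 23282 gene rows in a separate file for each library, of which 44 repeat a symbol (none of the 10 genes). Bowtie2, edgeR and the mm10 build appear in the submitters' processing notes without versions or roles. Which counter was used, whether it used strand, and how it treated reads that match several genes is not given in the sources used here.

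CPM is the count divided by the library's column total, with Rn45s (8.30% to 12.4% of a library) left in. Differences are log2(CPM + 1), and at least 2-fold means a difference of 1 or more. Ratios of CPM have exact intervals given the sum of both counts, and a count of 0 was replaced by 3 counts to give a lower bound. With 1 library per group no test was run, and the intervals compare libraries, not treatments. The 10 genes and all marker lists were chosen with earlier results of these data known. Genes named beyond the 10 come from those with the 4 highest CPM of each marker list in the BPA liver, those of a list at least 2-fold higher than in control, and the 20 genes with the largest difference between the BPA liver and the highest of the other 3. Not all genes this rule covers are described. The markers named at 0 counts, Bhlha15, Reg3d, Gatm, Xbp1, Manf and Krt19 were singled out after their values were seen.

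Alternatives were TMM scaling (edgeR 4.0.16), DESeq2 1.42.0 size factors, totals without Rn45s, pseudocounts of 0.25 and 5 CPM and other filters. The counting of 2-fold genes was tested on simulated data. Python 3.11.15 and R 4.3.3 were used. Coordinates are from GENCODE M21 and promoters from RefSeq.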

Additional observations from a re-analysis of the deposited data

Results flagged for a closer look

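The KRG uterus held the 10 acinar genes at 4.70 CPM in sum, above the 0.747 CPM of the control uterus, with intervals that do not overlap (3.59 to 6.03 and 0.358 to 1.37). The uterus libraries were outside the liver comparisons. Hepatocyte genes summed to 2756 CPM in that uterus library, 1172 in the control uterus, 263 in the BPA uterus and 258 in the combined uterus, with Alb at 407, 239, 4.81 and 2.09 CPM. The 2 uteri with more hepatocyte counts were thus KRG and control, and only the former had more acinar counts. Their part in the acinar value was not tested.

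The log2(CPM + 1) difference of Amy2a5 with BPA had another sign without ginseng than with it. Without ginseng, BPA minus control was 8.75 in liver and 0.39 in uterus (7 counts against 2). With ginseng, combined minus KRG was -0.21 in liver (16 counts against 24) and -1.34 in uterus (1 count against 22). The difference between these contrasts was not tested, since each has a single library per side, and Amy2a5 was chosen on the first of them. The Amy2a5 intervals overlapped between the combined and KRG livers (0.739 to 2.10 and 1.05 to 2.45 CPM). They also overlapped between the control and BPA uteri (0.0181 to 0.540 and 0.205 to 1.05 CPM). The signs of these 2 differences are thus within counting error. The Amy2a5 intervals of the combined and KRG uteri lay apart (0.00171 to 0.377 and 1.06 to 2.56 CPM). In each like-signed pair 1 sign was thus within counting error, and like signs in the 2 tissues show no repeated pattern.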

How the results depend on the processing

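No paired analysis was possible because each group has 1 library. The 10 genes were chosen on their level in the BPA liver, so their being higher there under other settings supports nothing. Their log2 differences to control ran from 1.99 to 10.75 over 5 scalings and pseudocounts, and 32 of 50 moved beyond counting error. With the combined liver in place of the BPA liver, 1 of the 10 was at least 2-fold higher with a mean of at least 10 CPM, against 7, an alternative chosen after seeing the data, as were those that leave out Cela2a or the acinar genes and the one with the KRG liver as control. The summed level of the 10 in the BPA liver was 1102 CPM with TMM, 1111 with DESeq2 size factors, 1172 without Rn45s in the total and 945 without Cela2a. Without Cela2a the control liver stood at 0.458 CPM and the combined liver at 4.20. Rows at least 2-fold higher in BPA numbered 161 with a filter of 1 CPM and 175 with none, against 82. Rows at least 10-fold higher numbered 9 with a pseudocount of 5 CPM, 9 from 50 CPM and 0 without the acinar rows, against 23. Fewer rows enter the last 2 by construction, and a larger pseudocount shrinks every ratio. Below about 3 counts, 0.196 to 0.242 CPM, a gene at 0 cannot be set apart from one that is present.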

Other observations

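Cpb1 had a count in each of the 8 libraries, from 1 in the control liver to 588 in the BPA liver. Of the counts of the 9 genes other than Cela2a, Cpb1 took 18.9% (11.9 to 27.6) in the KRG liver and 21.2% (11.1 to 34.7) in the combined liver, against 4.80% (4.42 to 5.19) in the BPA liver. In the combined uterus Cpb1 was 75.0% (47.6 to 92.7) of the 16 counts of the 10 genes. Of the 28 further secreted acinar genes, Amy2a3 alone was at least 2-fold higher than control in the KRG liver, and alone in the combined liver.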
